A study of Mus musculus with 8 samples.

Results

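The 10 genes described here carry the GDNF-RET signal that drives branching at the tip of the ureteric bud, or answer to it: Ret, Gfra1, Etv4, Etv5, Wnt11, Sox8, Sox9, Spry1, Dusp6 and Slco4c1. They were chosen by name, as every non-control probe whose systematic name is a RefSeq transcript of one of them. This gave 11 probes among 55681 non-control probes, 2 for Etv4 and 1 for each other gene. All 11 passed the filter on dim probes, so the 10 genes stood among 23343 genes or unnamed transcripts tested. The samples were ureteric bud cells, sorted by flow cytometry for GFP, from kidneys of C57BL/6 mice at postnatal day 0. The knockout group (KO) held 4 DOT1-null samples, with Dot1 deleted conditionally in Hoxb7-positive cells, and the control group (WT) held 4 wildtype samples. Each sample's RNA was labelled with Cy5 and hybridised to its own array against Cy3-labelled RNA of WT replicate 3. That RNA was therefore read 8 times, and WT 3 was hybridised against itself. Dot1l encodes the methyltransferase that modifies a lysine in the core of histone H3. The labels give neither the alleles behind the deletion and the GFP nor the animals or litters, so a p-value covers only the spread among these samples, and the whole Hoxb7 lineage, tip and stalk, is pooled in each.

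GDNF is secreted by the mesenchyme around the bud and binds the co-receptor GFRA1, which brings it to the receptor tyrosine kinase RET on tip cells. RET signals through ERK and other kinases to the ETS factors ETV4 and ETV5, and in mouse kidneys loss of these genes stops or stunts branching. WNT11, secreted by the tip, sustains Gdnf in the mesenchyme, and SPRY1 and DUSP6 restrain the pathway.

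Promoters of 3 members are shown for the contrast in their values: Slco4c1 and Gfra1 had KO arrays all below the WT arrays, while the difference of Dusp6 was positive. Each window runs from 250 bases before to 50 after the RefSeq start in GRCm38.p6, 5′ to 3′ on the gene's strand. The Slco4c1 window is chr1:96872122-96872421 (minus strand), the Gfra1 window is chr19:58455349-58455648 (minus strand), and the Dusp6 window is chr10:99262981-99263280 (plus strand). Capitals mark matches to the ETS-type motifs AGGAAG or CGGAAG, searched on both strands.
Slco4c1: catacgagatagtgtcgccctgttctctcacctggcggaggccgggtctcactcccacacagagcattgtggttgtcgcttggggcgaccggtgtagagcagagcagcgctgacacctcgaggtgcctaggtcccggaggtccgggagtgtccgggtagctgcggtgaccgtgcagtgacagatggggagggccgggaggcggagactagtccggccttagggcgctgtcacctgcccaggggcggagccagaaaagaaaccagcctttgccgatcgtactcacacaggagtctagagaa
Gfra1: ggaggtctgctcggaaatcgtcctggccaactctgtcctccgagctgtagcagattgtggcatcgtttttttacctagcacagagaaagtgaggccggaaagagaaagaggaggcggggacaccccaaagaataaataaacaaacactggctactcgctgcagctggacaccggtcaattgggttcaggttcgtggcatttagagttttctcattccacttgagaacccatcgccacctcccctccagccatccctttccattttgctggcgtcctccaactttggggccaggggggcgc
Dusp6: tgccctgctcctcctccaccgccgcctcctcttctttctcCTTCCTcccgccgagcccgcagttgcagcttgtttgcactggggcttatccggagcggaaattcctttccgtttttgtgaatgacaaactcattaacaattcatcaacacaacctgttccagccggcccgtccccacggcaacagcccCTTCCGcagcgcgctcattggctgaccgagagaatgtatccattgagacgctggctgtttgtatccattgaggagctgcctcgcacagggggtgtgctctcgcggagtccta
The Dusp6 window held 1 AGGAAG and 1 CGGAAG, both read on the opposite strand, and the other printed windows held neither motif. The promoter table used here matched 7 of the 10 members, and Ret, Etv4 and Sox9 are named only. Etv5 and Wnt11 each have 2 windows, and 1 motif match was found in 1 window of Etv5 and in each window of Wnt11. The windows of Sox8 and Spry1 had none. Over all 32851 promoter windows, 35.4% held AGGAAG, 16.9% held CGGAAG and 46.5% held either, so a match is common. A match is a description of letters, not a bound site.

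The share of spots with Cy5 well above background reached 95.2% on KO 3 and 59.1% to 68.9% on the other KO arrays, against 52.4% to 56.2% on the WT arrays. On KO 3 the scanner software marked 7665 spots, against 175 to 216 on each of the others. Genotype and row of the slide cannot be told apart, because each group filled a row of its own. The log2 difference for Dot1l was 0.18 ± 0.11 (SE) with an adjusted p of 0.342 in limma, but whether its probe lies in the deleted stretch is not given, so it does not check the genotype. All 13 ureteric bud markers were well above background on every array, as were all 11 nephron progenitor markers. Values below are log2 ratios of the sample over the WT 3 RNA, normalised within each array, and a difference is the KO mean minus the WT mean.

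In the knockout cells 8 of the 10 genes had a negative log2 difference, and the largest was that of Slco4c1. The receptor, its co-receptor, both ETS factors, Wnt11 and both SOX genes lay on that side, and the feedback genes Spry1 and Dusp6 on the other, except under median centring, where both turned negative. None of the 10 passed an adjusted p of 0.05 in limma over all 23343, where 2 genes did (0.00857%). At an unadjusted p under 0.05 there were 5 members, Gfra1, Etv4, Wnt11, Sox8 and Slco4c1, all lower in KO. Of all genes tested 24.1% met that rule, and 13.6% met it and were lower in KO. Gfra1, Sox8 and Slco4c1 had every KO array below every WT array, as did 7.62% of all genes tested, and 0 members had every KO array above, against 4.22%. The median difference of the members was -0.45, and that of all genes was -0.02. Of all genes tested, 54.1% had a difference below 0.

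**Figure D1:**
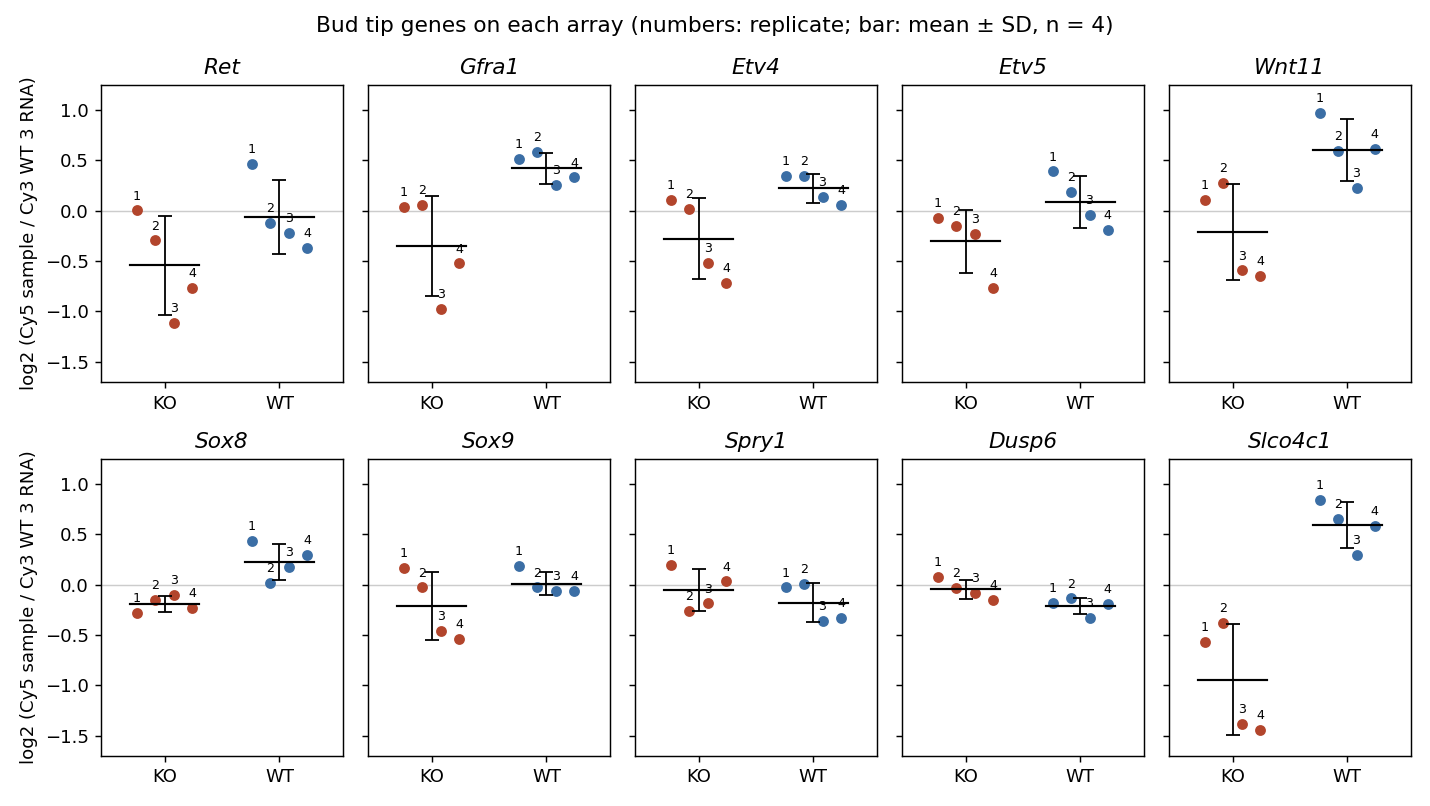
Log2 ratio of the sample (Cy5) over the WT 3 RNA (Cy3) for each of the 10 genes, with 1 point per array, KO left of WT, numbered by replicate, and bars at the group mean ± SD (n = 4). Slco4c1, Gfra1 and Sox8 are the genes whose KO points all lie below their WT points.

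Ret encodes the receptor tyrosine kinase itself. Its log2 ratios (NM_001080780) were 0.0035, -0.30, -1.11 and -0.77 on KO 1 to KO 4, against 0.47, -0.12, -0.22 and -0.37 on WT 1 to WT 4. KO 3 and KO 4 lay below every WT array, KO 1 and KO 2 lay within the WT range, and the groups overlapped. The means were -0.54 ± 0.49 in KO and -0.06 ± 0.37 in WT (SD, n = 4 each), a difference of -0.48 (95% interval -1.05 to 0.09, limma adjusted p = 0.275). An exact permutation test over the 8 arrays, 2-sided, gave p = 0.229. The spread within WT was itself wide: without WT 1 the difference was -0.30, and without KO 3 it was -0.29.

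Gfra1 encodes the GPI-anchored co-receptor that presents GDNF to RET. Its ratios (NM_010279) were 0.04, 0.06, -0.97 and -0.52 on KO 1 to KO 4, against 0.52, 0.58, 0.26 and 0.33 on WT 1 to WT 4. Every KO array was below every WT array, and KO 3 and KO 4 were far lower than KO 1 and KO 2. The means of -0.35 ± 0.50 in KO and 0.42 ± 0.15 in WT (SD, n = 4 each) gave a difference of -0.77 ± 0.22 (SE), a level 1.71-fold lower in KO. The adjusted p was 0.115 in limma, and the exact permutation p was 0.0286, the smallest that 4 arrays against 4 allow.

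The ETS factors Etv4 and Etv5 act downstream of RET and are needed for tip identity. Etv4 (NM_008815), by its brighter probe, had 0.11, 0.02, -0.52 and -0.72 on KO 1 to KO 4, against 0.35, 0.35, 0.13 and 0.06 on WT 1 to WT 4. The difference was -0.50 ± 0.18 (SE, limma adjusted p = 0.152, exact permutation p = 0.0571), with 3 KO arrays below the lowest WT array and KO 1 within the WT range. The second Etv4 probe had 0.54, 0.47, -0.31 and -0.20 on the KO arrays, against 0.70, 0.71, 0.48 and 0.52 on the WT arrays. Its difference was -0.48 ± 0.19 (SE, adjusted p over all probes 0.177 in limma), close to that of the first probe. Etv5 (NM_023794) had -0.07, -0.15, -0.23 and -0.77 on KO 1 to KO 4, against 0.39, 0.18, -0.04 and -0.19 on WT 1 to WT 4. The Etv5 groups overlapped, with KO 4 lowest, and the difference was -0.39 ± 0.18 (SE, limma adjusted p = 0.209, exact permutation p = 0.114). Without KO 4 the Etv5 difference was -0.24.

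Wnt11, the tip ligand, had ratios (NM_009519) of 0.11, 0.28, -0.59 and -0.65 on KO 1 to KO 4, against 0.97, 0.60, 0.23 and 0.62 on WT 1 to WT 4. KO 2 was above WT 3, and that was the only overlap between the groups. The means of -0.21 ± 0.48 in KO and 0.60 ± 0.30 in WT (SD, n = 4 each) gave a difference of -0.82 ± 0.23 (SE, limma adjusted p = 0.118, exact permutation p = 0.0571), or 1.76-fold lower in KO. Wnt11 also had the widest spread of the Cy3 signal among the member probes, an SD of 0.186 on the log2 scale over the 8 arrays, where the same RNA was read each time.

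Sox8 and Sox9 encode related SOX factors that act together in branching of the mouse bud. Sox8 (NM_011447) had -0.28, -0.15, -0.10 and -0.23 on KO 1 to KO 4, against 0.43, 0.01, 0.17 and 0.29 on WT 1 to WT 4. Every KO array was below every WT array, and the KO arrays lay close together. The difference was -0.42 ± 0.10 (SE, limma adjusted p = 0.112, exact permutation p = 0.0286). The probe was dim, with a median Cy5 signal of 94 to 110 on KO arrays and 109 to 213 on WT arrays. Cy5 was well above background on 7 of 8 arrays and Cy3 on 2 of 8. The size of the Sox8 difference moved with the background step, to -1.34 with no offset and -2.37 by the scanner software's own ratio.

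Sox9 (NM_011448) had 0.17, -0.03, -0.46 and -0.54 on KO 1 to KO 4, against 0.18, -0.03, -0.06 and -0.06 on WT 1 to WT 4. KO 3 and KO 4 lay below the WT range and KO 1 and KO 2 within it. The difference was -0.22 ± 0.16 (SE, limma adjusted p = 0.416, exact permutation p = 0.314), and it ran from -0.35 to -0.11 when each array was left out in turn, lowest without KO 1 and nearest to 0 without KO 4 (-0.14 without KO 3). The Sox9 probe is printed at 10 spots, and the SD over its spots within an array was 0.0298 to 0.0952, against 0.34 between KO arrays.

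Spry1 and Dusp6 encode inhibitors that RET and FGF signals induce against themselves, SPRY1 at the receptor tyrosine kinase and DUSP6 as a phosphatase of ERK. Spry1 (NM_011896) had 0.20, -0.26, -0.19 and 0.03 on KO 1 to KO 4, against -0.03, 0.00, -0.37 and -0.33 on WT 1 to WT 4. The groups overlapped, and the difference was 0.12 ± 0.13 (SE, limma adjusted p = 0.594, exact permutation p = 0.429). It was 0.039 without KO 1, 0.062 without WT 3, 0.074 without WT 4 and 0.19 without KO 2. Dusp6 (NM_026268) had 0.07, -0.03, -0.08 and -0.15 on KO 1 to KO 4, against -0.19, -0.14, -0.33 and -0.19 on WT 1 to WT 4. In Dusp6 3 KO arrays were above the highest WT array, and the difference was 0.16 ± 0.09 (SE, limma adjusted p = 0.273, exact permutation p = 0.0571). With median centring in place of loess both turned negative, to -0.38 for Spry1 and -0.44 for Dusp6, where the median of all genes was -0.30. By that centring Ret had -0.87, Etv4 -1.16, Etv5 -1.07, Wnt11 -1.25 and Sox9 -0.57, each over 1.5 times its value under loess.

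Slco4c1 encodes an organic anion transporter of kidney epithelium. Its ratios (NM_172658) were -0.57, -0.38, -1.38 and -1.45 on KO 1 to KO 4, against 0.84, 0.65, 0.29 and 0.59 on WT 1 to WT 4. Every KO array was below every WT array by a wide gap, and KO 3 and KO 4 were again the lowest. The means of -0.94 ± 0.55 in KO and 0.59 ± 0.23 in WT (SD, n = 4 each) gave a difference of -1.54 (95% interval -2.09 to -0.98), or 2.90-fold lower in KO. This was the 2nd lowest difference among the 23343, with an adjusted p of 0.0933 in limma and an exact permutation p of 0.0286. The median Cy5 signal of its probe, before any normalisation, was 316 to 813 on KO arrays and 1140 to 2010 on WT arrays, so the groups were apart in the raw signal too. On WT 3, where 1 RNA met itself, Slco4c1 still read 0.29 and Spry1 -0.37, the ends of the range among the probes used for the members.

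**Figure D2:**
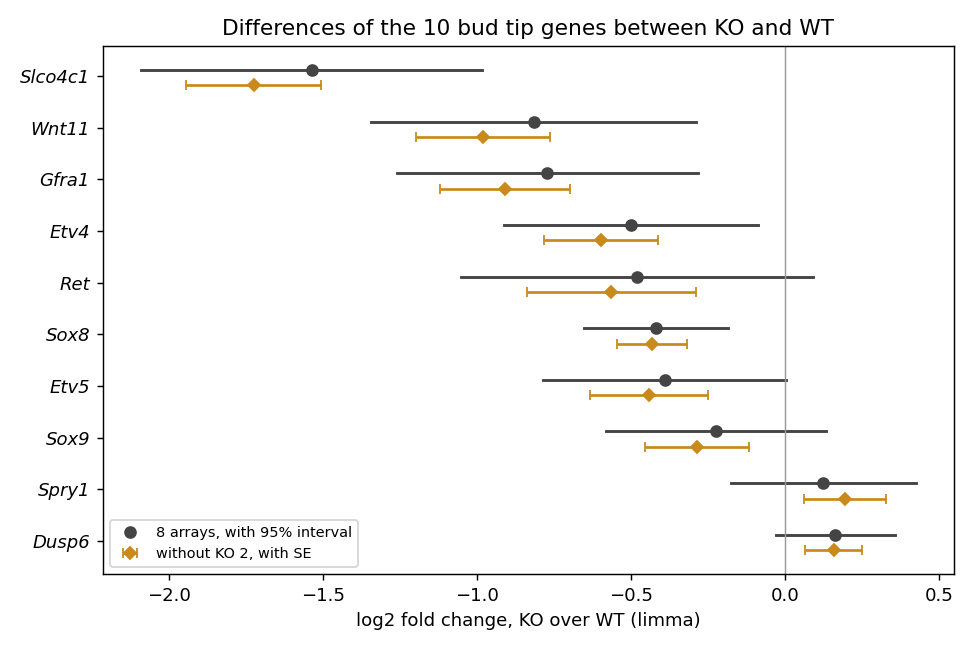
Log2 difference of each gene, KO minus WT, from limma, with all 8 arrays (circles, 95% interval) and without KO 2 (diamonds, SE). The 8-array interval of Slco4c1 runs from -2.09 to -0.98, those of Wnt11, Gfra1, Etv4 and Sox8 also lie below 0, and those of Ret, Etv5, Sox9, Spry1 and Dusp6 include 0. Under median centring Spry1 and Dusp6 turn to -0.38 and -0.44.

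Whether members passed the threshold turned on KO 2 or on how arrays were weighted. Without KO 2, 4 members passed in limma, all lower in KO, and 11.2% of all genes tested were called lower in that fit. They were Slco4c1 at -1.72 ± 0.22 (adjusted p = 0.00242), Wnt11 at -0.98 ± 0.22 (0.0152), Gfra1 at -0.91 ± 0.21 (0.0174) and Sox8 at -0.43 ± 0.11 (0.0282), each with its SE and limma adjusted p. Etv4 stood at the threshold, at -0.60 with a limma adjusted p of 0.0506, and Ret did not pass, at -0.56 with 0.181. Without KO 2 and KO 3 the 4 genes passed again, at -1.60 for Slco4c1, -0.87 for Wnt11, -0.66 for Gfra1 and -0.48 for Sox8, with 10.1% of all genes called lower. With all 8 arrays kept and weighted by array quality, these 4 passed as well, in a fit that called 2154 of 23343 genes lower. Their limma adjusted p was 0.0128 for Slco4c1, 0.0250 for Wnt11, 0.0210 for Gfra1 and 0.0268 for Sox8. Over genes with values on all arrays, KO 2 correlated at 0.62 to 0.80 with the WT arrays and at 0.37 to 0.42 with the other KO arrays. Calls made without KO 2 are therefore no independent support. KO 2 was the KO array nearest to WT over all genes, with an SD of deviations from the WT mean of 0.21, against 0.43 on KO 1, 0.40 on KO 3 and 0.51 on KO 4.

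The members did not follow that order of arrays. The 10 genes deviated from their WT means by a median of -0.13, -0.24, -0.60 and -0.78 on KO 1 to KO 4. On WT 1 to WT 4 these medians were 0.19, 0.06, -0.14 and -0.08, so WT 3 and WT 4 were also the lower WT arrays. Members below their WT mean numbered 0, 4, 10 and 7 on WT 1 to WT 4, and 6, 9, 9 and 8 on KO 1 to KO 4. On KO 3 and on KO 4 there were 8 members below the lowest WT array, and on KO 1 and on KO 2 there were 4. The share of all genes below the lowest WT array was not counted on each KO array. These counts thus have no baseline and do not set the members apart from other genes. KO 3 and KO 4 were the lowest arrays for 7 members, Ret, Gfra1, Etv4, Etv5, Wnt11, Sox9 and Slco4c1. In Slco4c1 the deviations were -1.16, -0.97, -1.97 and -2.04 on KO 1 to KO 4, so each KO array held the difference. In Ret they were 0.06, -0.23, -1.05 and -0.71, so the lowest were on KO 3 and KO 4. On WT 1 to WT 4 the Ret deviations were 0.53, -0.06, -0.16 and -0.31, so they fell with replicate number within WT. KO 3 is the bright array with many marked spots, and the part of that in its values was not tested.

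**Figure D3:**
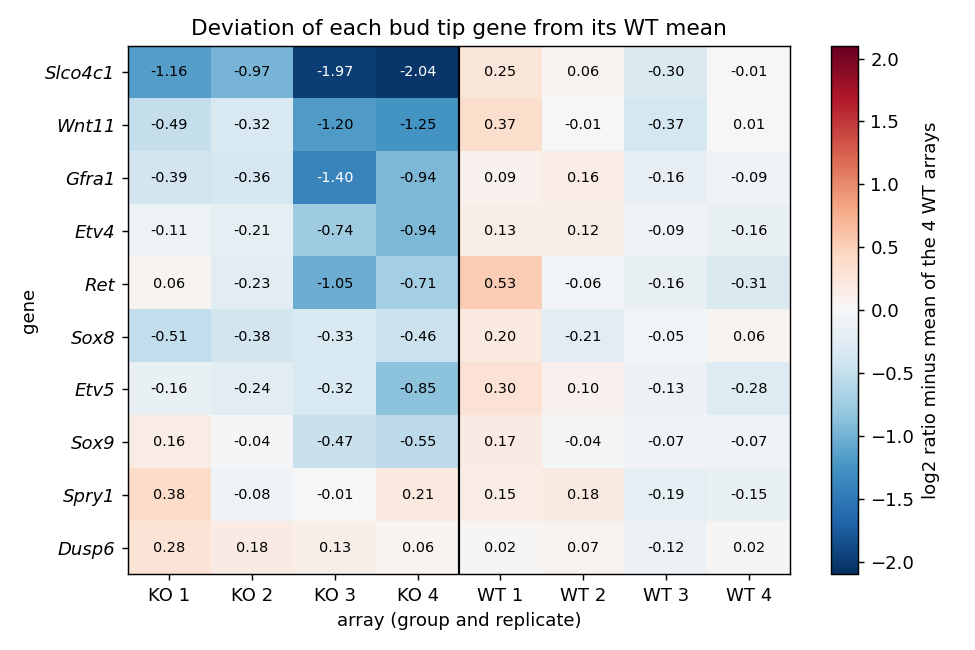
Deviation of each gene from its WT mean on each array, log2 scale, KO arrays left of WT arrays. KO 3 and KO 4 carry the largest negative deviations, down to -2.04 for Slco4c1.

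Among those 7 genes, grouped after their values were seen, Pearson's r over the 8 arrays was 0.697 to 0.961 in all 21 pairs, highest between Wnt11 and Slco4c1. Sox8 correlated with them at 0.405 to 0.799, and Spry1 and Dusp6 at -0.435 to 0.255. These values describe 8 arrays that share 1 Cy3 RNA and 1 difference between groups. The named genes with the pattern most like that of Ret, of 21214 with values on all arrays, were Rin2 (r = 0.983), Samd5 (0.958), Prdx1 (0.952), Utp20 (0.949) and Pim1 (0.948). Sox9 was number 34 in that order, Etv4 149, Gfra1 161, Wnt11 165, Slco4c1 718, Etv5 836, Sox8 5327, Spry1 9055 and Dusp6 13138.

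Around the 10 members, 8 lists of related genes held 112 tested genes of 122 named, and none passed the limma threshold with all arrays. Without KO 2, 18 were called lower in KO and 6 higher, where 11.2% and 10.0% of all genes were. The lists with the most negative medians were the ligands and co-receptors of the GDNF family (-0.34, 6 of 7 below 0), other tip and branching genes (-0.31, 10 of 11) and transcription factors upstream of Ret (-0.29, 10 of 11). Median deviations of the ligand list were -0.27, 0.09, -0.52 and -0.13 on KO 1 to KO 4, and -0.23 to 0.12 on WT. Those of the tip list were -0.13, -0.02, -0.53 and -0.39, against -0.21 to 0.10, so both lists overlapped between groups. Those of the upstream factors were -0.27, -0.17, -0.25 and -0.31, against -0.03 to 0.06. RET adaptors and kinases had a median of -0.06 with 19 of 29 below 0, close to all genes. ERK feedback genes and targets had -0.15 with 11 of 17 below 0, and other growth factors of the bud had -0.13 with 5 of 8. Without WT 2 the medians of the ligands and co-receptors, the ERK list and the growth factors were -0.20, -0.05 and -0.06. Without WT 4 that of the factors upstream of Ret was -0.18, and without KO 4 or KO 3 that of the adaptors was -0.10 or -0.04. Under median centring, where all genes had -0.30, the medians of these 6 lists were -0.70 for ligands and co-receptors, -0.51 for tip genes, -0.62 for upstream factors, -0.44 for adaptors, -0.48 for the ERK list and -0.44 for growth factors. By Cy5 alone, where all genes had -0.18, they were -0.58, -0.47, -0.31, -0.23, -0.24 and -0.37 in that order. Bud stalk and collecting duct genes had 0.14, with 7 of 19 below 0, but -0.25 under median centring. Other SOX genes had 0.02, with 4 of 10 below 0, but -0.23 under median centring and -0.27 by Cy5 alone.

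Among the adaptors, Grb10, which binds activated RET, had a difference of -1.07 ± 0.21 (SE, limma adjusted p = 0.105) with no overlap between its 3 unmarked KO arrays (KO 3 left out) and WT, and Frs2, an adaptor that docks to RET, 0.60 ± 0.15 (0.112), also with no overlap but higher in KO. Of the co-receptors, Gfra4 had -0.82 ± 0.21 (SE, limma adjusted p = 0.112), but its other 3 probes had -0.13, -0.07 and -0.18. Artn, the ligand that binds GFRA3, had -0.28 ± 0.12 (0.189) by the same fit. Pax2, a transcription factor that Ret expression in the bud depends on, had -0.40 ± 0.09 (SE, limma adjusted p = 0.112) with no overlap, also over 3 KO arrays without KO 3, and Lhx1 -0.38 ± 0.13 (0.139). Met, the receptor for HGF, which acts with RET in branching, had -0.54 ± 0.15 (SE, limma adjusted p = 0.114), and Mmp14, a membrane-bound matrix metalloprotease, -0.54 ± 0.22 (0.180), again without KO 3, whose spot was marked, and -0.83 when KO 2 was left out as well. Among ERK inhibitors, Spred2 had -0.55 ± 0.16 (SE, limma adjusted p = 0.120) and Dusp4 -0.58 ± 0.18 (0.122), so these inhibitors lay on the other side of 0 from Spry1 and Dusp6. Sox4 had -0.61 ± 0.18 (0.121) and Sox13 -0.53 ± 0.15 (0.114), by the same fit. Sox5 lay the other way, at 1.10 ± 0.45 (SE, limma adjusted p = 0.179), with KO 2 below every WT array and KO 4 far above the rest, and at 1.53 without KO 2 (limma adjusted p = 0.0138). In the stalk list Krt18, a keratin, had 0.79 ± 0.20 (SE, limma adjusted p = 0.112) and Hsd11b2, a steroid dehydrogenase of the collecting duct, -0.49 ± 0.13 (0.112).

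**Figure D4:**
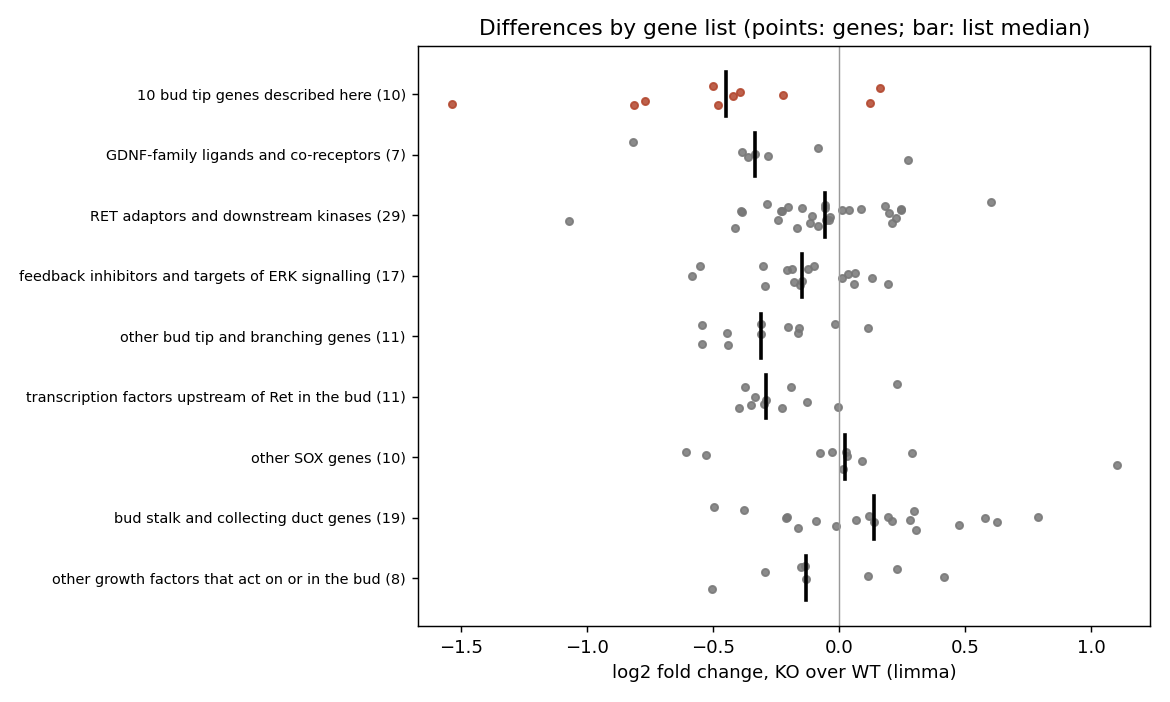
Log2 difference, KO minus WT, of the 10 members (top) and of each tested gene in 8 lists of related genes, with each median as a bar and the number of genes in brackets. The list medians run from -0.34 for the ligands and co-receptors to 0.14 for stalk and collecting duct genes, where the median of all genes is -0.02. Under median centring the stalk and collecting duct genes had -0.25 and all genes -0.30.

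In such bulk samples fewer tip cells and less RNA per cell cannot be told apart. Nephron progenitor markers had a median difference of -0.36, with 10 of 11 below 0, and a summed Cy5 signal of 24189.5 to 45498.5 on KO arrays and 26285 to 53534 on WT arrays. Stroma and smooth muscle markers had -0.35 with 11 of 12 below 0, and markers of macrophages and neutrophils -0.27 with 9 of 9. Nephron progenitor markers deviated from their WT means by a median of -0.92, 0.12, -0.50 and -0.21 on KO 1 to KO 4, stroma and smooth muscle markers by -0.92, 0.32, -0.72 and -0.15, and nephron tubule and podocyte markers by -0.45, -0.15, 0.58 and 0.33. On WT 1 to WT 4 the progenitor medians were 0.38, 0.54, -0.51 and -0.38, a range that held those of KO 2, KO 3 and KO 4. The stroma medians there were 0.39, 0.20, -0.51 and 0.08, and the tubule and podocyte medians -0.03, -0.01, -0.22 and -0.28. The first and second of these lists were thus lowest on KO 1, and the tubule and podocyte markers were highest on KO 3 and KO 4, the arrays where the members were lowest. Over the groups the tubule and podocyte markers had a median difference of -0.14, with 7 of 12 below 0. Endothelial markers had a median of 0.22, with 1 of 8 below 0. Their median deviations were 0.13, 0.28, 0.19 and 0.09 on KO 1 to KO 4. On WT 1 to WT 4 they were -0.37, -0.45, -0.04 and 0.93, so WT 4 was the highest array. The 13 ureteric bud markers were mixed, with 7 below 0 and a median of -0.13. Among them Hoxb7, which marks the deleted lineage, had -0.71 ± 0.08 (SE, limma adjusted p = 0.0570), while Krt18 had 0.79 and Krt8 0.30. The part of these cell types in the members' values was not tested.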

How the data were processed

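The deposited scanner files hold spot intensity values that the authors extracted in version 10.7.3.1 of Agilent Feature Extraction (source: per the submitters' processing notes), with array annotation for the mouse build mm9. Median foreground and local background were used. The plan named foreground signals without saying mean or median, and mean foreground signals are not among the columns used here. The files' log10 ratio, background-subtracted and dye-normalised by the authors' scanner software per the file headers, and the deposited series value table (log10, r of at least 0.999999 with it, column medians 0 on 7 arrays and 0.0152 on KO 3) served as alternatives. From the intensities, log2 ratios were computed from the deposited Cy5 and Cy3 values in limma 3.58.1 (R 4.3.3): normexp with offset 50, then loess within each array. Marked spots were left out, spots of a probe averaged, and probes kept with Cy5 well above background on at least 4 arrays and at least 3 unmarked arrays per group. The brightest probe stood for a gene. Names came from RefSeq (GRCm38.p6), which matched 21717 of 37850 systematic names. KO was compared with WT with its moderated 2-sided test (lmFit, eBayes), and p-values were adjusted by Benjamini-Hochberg over 23343 genes. In data simulated for that comparison, a log2 change of 1 was recovered in 84 of 100 genes and one of 2 in 97 of 100, with 10 false calls. The simulated noise was independent between genes and only the planted genes changed. The array-wide patterns of the real data were absent, so these shares do not give the power here. The members and lists were chosen with earlier results of these data known. Named genes are the 10 members, up to 3 genes with the smallest p from each list, Dot1l, Hoxb7, and the 5 genes most like Ret (Krt8, a bud marker, was added after its values were seen), and the text gives values for some of those from the lists. Alternatives covered background, normalisation, filter, weights, probes, the replicate block and arrays left out. The number of arrays limits the precision. Figures were drawn with matplotlib 3.10.9.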

Additional observations from a re-analysis of the deposited data

Results flagged for a closer look

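In Sox9 the WT 1 array (0.18) stood apart from the other WT arrays (-0.03, -0.06 and -0.06): the gap to the nearest was 0.866 of the WT range. It was the only one among 22 groups of member probes examined, and chance marks about 1 in 20 such groups.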

How the results depend on the processing

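The 8 negative member differences kept their sign under every alternative that measured them, and the filter on all 8 arrays dropped Sox8. Median centring turned Spry1 to -0.38 and Dusp6 to -0.44. Members past the threshold numbered 0, except 4 with array quality weights, 4 without KO 2 and 4 without KO 2 and KO 3, so leaving out each array gave 0 to 4. Genes past the threshold numbered 2, and 1 with offset 0, 1 with no background subtraction, 1 with the mean over probes, 0 with median centring, 0 with Cy5 alone, 5 after scaling between arrays, 4 with no filter, 16 with trend and robust eBayes, 4542 with array weights, 5510 without KO 2 and KO 3, and 1 to 4947 leaving out each array, with 4947 without KO 2 and 8 without KO 3. With replicate number as a block 0 genes passed in limma, and no member call changed. Same-numbered arrays correlated at -0.24, 0.05, 0.11 and -0.02 in their deviations. With 4 arrays per group and no litter or batch labels, this cannot settle whether the numbers pair the samples. With the block the SE of Ret went from 0.255 to 0.132 and that of Slco4c1 from 0.246 to 0.167. The SE also fell for Gfra1 (0.218 to 0.146), Etv4, Etv5, Wnt11, Sox9 and Spry1. Only that of Sox8 rose, from 0.104 to 0.118, and that of Dusp6, from 0.086 to 0.091. Slco4c1 ranged from -2.07 to -1.37 over 23 alternatives, with adjusted p from 0.00242 to 0.309. The cause of these changes was not tested. Dim probes such as Sox8 have a sign but no settled size.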
